A study of Homo sapiens with 6 samples.

Results

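DPF3a and p300 occupied a shared set of 8531 sites in 786-O, a cell line long established from clear cell renal cell carcinoma. A site counted as paired when a DPF3a peak and a p300 peak overlapped by at least 0.5 of the width of each, and every peak entered at most 1 pair. The paired sites held 8531 of 51530 DPF3a peaks and 8531 of 20380 p300 peaks, out of 118277 peaks in the 3 lists of the series, the other list being that of SMAD4. Paired sites are described by their place, strength, summit distance, width and DNA sequence, and then by the protein-coding genes that hold a summit of DPF3a, of p300 or of both.

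Binding was measured by chromatin immunoprecipitation followed by sequencing (ChIP-seq), with 2 replicate libraries per factor and 6 samples in all. HA-tagged DPF3a was pulled down through its tag from 786-O cells that overexpress it from a lentiviral vector, a line in which the study could hardly detect DPF3 of its own, and that chromatin was fixed with DSG, a protein crosslinker, and then with formaldehyde. Endogenous p300 was pulled down from 786-O cells fixed with formaldehyde alone, and the labels do not say whether those cells overexpress DPF3a. Each list was made from both libraries of its factor, so no spread between replicates exists for any value and no test was made. The factor, the fixation, the cells, the antibody and the depth change together between the lists and cannot be told apart. The depth recovered from the peak values was 15.8 M reads for DPF3a and 27.6 M for p300. Printed intervals are 95% intervals, which cover counting error only.

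DPF3a, the shorter product of the DPF3 gene, belongs to the BAF form of the SWI/SNF complex, which slides and evicts nucleosomes with the energy of ATP. p300 is a histone acetyltransferase that transcription factors bring to promoters and enhancers, where it acetylates histone tails, and its peaks are widely used to find active enhancers. The comparison addresses whether peaks of DPF3a and p300 lie at the same places in the genome. The lists come from separate pulldowns, so it cannot show that the proteins meet on the same chromatin.

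The sequences below show the kinds of site on which the results turn. All are 101 bases of hg38, plus strand, centred on a summit, and capitals mark matches to TGACTCA or its reverse complement TGAGTCA, the motif of the AP-1 family (FOS, JUN and relatives), in a search for 12 motifs. The first 3 are intragenic pairs outside promoters that carry this motif within 20 bp of the DPF3a summit. They were chosen for high rank in both lists, with pairs within 20000 bp of an assembly gap and some others left out. They lie in introns of RGS6 (chr14:72463431-72463531), MEOX2 (chr7:15643482-15643582) and KSR2 (chr12:117487414-117487514).
RGS6: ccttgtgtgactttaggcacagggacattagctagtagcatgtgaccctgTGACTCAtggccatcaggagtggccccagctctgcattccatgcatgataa
MEOX2: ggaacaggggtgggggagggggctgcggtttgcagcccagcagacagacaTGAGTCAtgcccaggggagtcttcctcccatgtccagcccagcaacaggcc
KSR2: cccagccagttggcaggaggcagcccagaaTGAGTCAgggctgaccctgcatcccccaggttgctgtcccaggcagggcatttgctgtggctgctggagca

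In the RGS6 and MEOX2 windows the middle of the motif lay 3 bp from the DPF3a summit, and in KSR2 it lay 17 bp away. The choice of windows required the motif to lie this near, so these distances are not a result. The p300 summit lay 19 bp from the DPF3a summit in RGS6, 23 bp in MEOX2 and 17 bp in KSR2, in each case to the left. Promoter windows were chosen by joint rank, with the same pairs left out, and not by a motif. They cannot be set against the first 3 for motif content. Those at SLC9B1 (chr4:103019504-103019604) and at the start shared by CCDC59 and METTL25 (chr12:82358575-82358675), which were among the promoter pairs of highest joint rank, held none of the 12 motifs.
SLC9B1: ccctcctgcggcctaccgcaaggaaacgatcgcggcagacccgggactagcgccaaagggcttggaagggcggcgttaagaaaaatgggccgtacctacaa
CCDC59 and METTL25: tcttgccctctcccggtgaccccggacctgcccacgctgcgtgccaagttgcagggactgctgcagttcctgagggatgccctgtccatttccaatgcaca

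Paired sites were divided about evenly between promoters and other places, whereas most unpaired sites of both factors lay outside promoters. Promoters were taken as the 1000 bp before and the 100 bp after any annotated transcript start. Of the paired DPF3a summits, 52.7% were in promoters (51.6 to 53.7), against 13.7% of the unpaired ones (13.4 to 14.0). Of the paired p300 summits, 49.6% were in promoters (48.6 to 50.7), against 27.7% of the unpaired ones (26.9 to 28.5). Read the other way, 43.3% of DPF3a promoter peaks were paired (42.4 to 44.3) and 9.81% of those outside promoters (9.53 to 10.1). For p300 these shares were 56.4% in promoters (55.3 to 57.5) and 33.4% outside (32.6 to 34.2). None of these intervals overlapped between promoters and other sites. Promoter membership of a pair is taken from its DPF3a summit below, which gives 4494 pairs in promoters and 4037 outside, and in 8.22% of pairs only 1 of the summits lay in a promoter.

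Many peaks that were not paired still overlapped. With an overlap of 1 bp in place of 0.5, 22.8% of DPF3a peaks touched a p300 peak and 58.0% of p300 peaks touched a DPF3a peak. The share of p300 peaks that paired was not even along the genome. It was 29.8% on chromosomes 5, 7 and 8 (28.5 to 31.1), which hold 4885 p300 peaks, and 45.7% on the other chromosomes (44.9 to 46.5). Chromosome 8 was lowest with 27.4%, and chromosome 22 highest with 59.1%. Unpaired p300 summits also lay more often in coding exons over 2000 bp from a canonical protein-coding start, at 6.68% (6.24 to 7.14) against 1.08% of paired ones (0.880 to 1.32). In the DPF3a list these shares were 0.835% of unpaired and 0.856% of paired summits. The part that copy number or reads from coding sequence play in these shares was not tested.

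At gene starts the p300 summit lay further into the gene than the DPF3a summit. There were 4208 pairs whose DPF3a summit lay within 1000 bp of a canonical protein-coding start, and positions were counted along the strand of that gene. The median DPF3a position was 36 bp downstream of the start (quartiles -163 and 145). That of p300 was 106 bp downstream (quartiles -145 and 199). The p300 summit was downstream of the DPF3a summit in 58.4% of these pairs (56.9 to 59.9) and upstream in 41.3% (39.9 to 42.8). Some of these starts have a start on the opposite strand nearby. Without them, 3826 pairs were left, with medians of 31 bp for DPF3a and 109 bp for p300, and the p300 summit was downstream in 59.96% (58.4 to 61.5). In these 3826 pairs, DPF3a summits were spread over both sides, with 410 in the last 100 bp before the start and 723 in the first 100 bp after it. Their p300 summits dipped just before the start, with 298 from 200 to 100 bp upstream and 215 in the last 100 bp, and numbered 1031 from 100 to 200 bp after it.

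**Figure D1:**
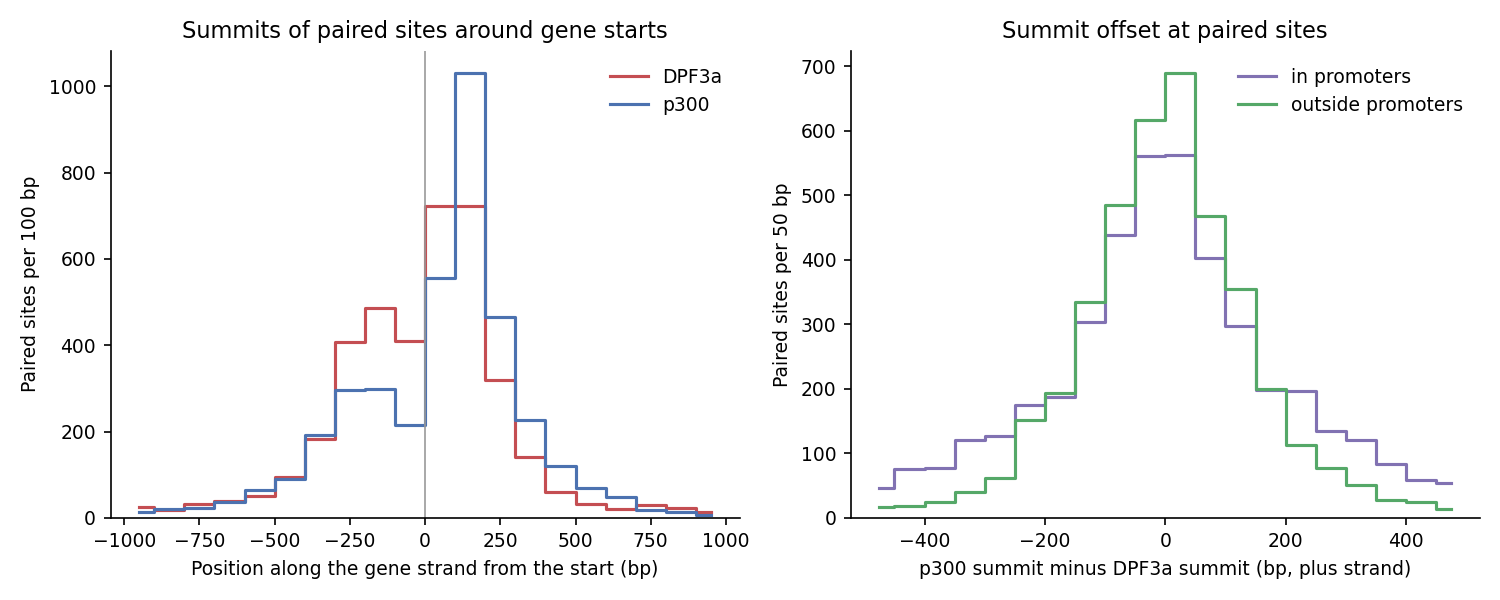
Left, number of paired sites per 100 bp against summit position in bp along the gene strand from a canonical protein-coding start, for DPF3a (red) and p300 (blue), with p300 highest from 100 to 200 bp and a local dip in the last 100 bp before the start. Pairs at starts with a start on the opposite strand nearby are left out of this panel. Right, number of paired sites per 50 bp against the p300 summit minus the DPF3a summit in bp on the plus strand, in promoters (purple) and outside them (green), where the promoter curve is the broader.

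The summits of a pair rarely coincided. The median distance was 101 bp over all pairs (quartiles 43 and 207), and 28.7% of pairs had summits within 50 bp (27.8 to 29.7). In promoters the median was 122 bp (quartiles 50 and 260), and outside them it was 85 bp (quartiles 38 and 159). Summits over 200 bp apart made up 34.3% of promoter pairs (32.9 to 35.7) and 17.2% of the others (16.1 to 18.4). SMAD4, the third factor of the series, gives a measure of how close summits of separate lists can lie. DPF3a and SMAD4 summits of their own pairs were a median of 49 bp apart, and SMAD4 and p300 summits 99 bp. At the 7820 DPF3a peaks paired with both, the p300 summit lay 104 bp away (median, quartiles 45 and 212) and the SMAD4 summit 59 bp (quartiles 25 and 129), and SMAD4 was the nearer in 64.7% (63.7 to 65.8). Of the 3 factors, only DPF3a had the additional DSG step.

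Paired sites were of medium strength in the DPF3a list, and their rank depended on where they lay. Strength was the fold enrichment of the peak caller, the reads at the summit over the local background, turned into a percentile of the factor's own list in which 100 is the strongest. In promoter pairs the median percentile was 35.3 for DPF3a (quartiles 18.2 and 52.8) and 44.8 for p300 (quartiles 20.7 and 83.4). In pairs outside promoters the DPF3a median was 73.9 (quartiles 43.7 and 91.2), whereas the p300 median was 38.7 (quartiles 18.3 and 76.6). The DPF3a summit was above its list's median in 28.8% of promoter pairs (27.5 to 30.2) and in 70.4% of the others (69.0 to 71.8). In reads, the median DPF3a height was 23 in promoter pairs and 47 in the others, while that of p300 was 29 and 27. The p300 percentiles depended on the measure, while the order of promoters and other sites did not. Ranked by −log10 q, which weighs in the number of reads, the p300 medians were 73.3 in promoters and 63.5 outside, and those of DPF3a 39.7 and 80.7.

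**Figure D2:**
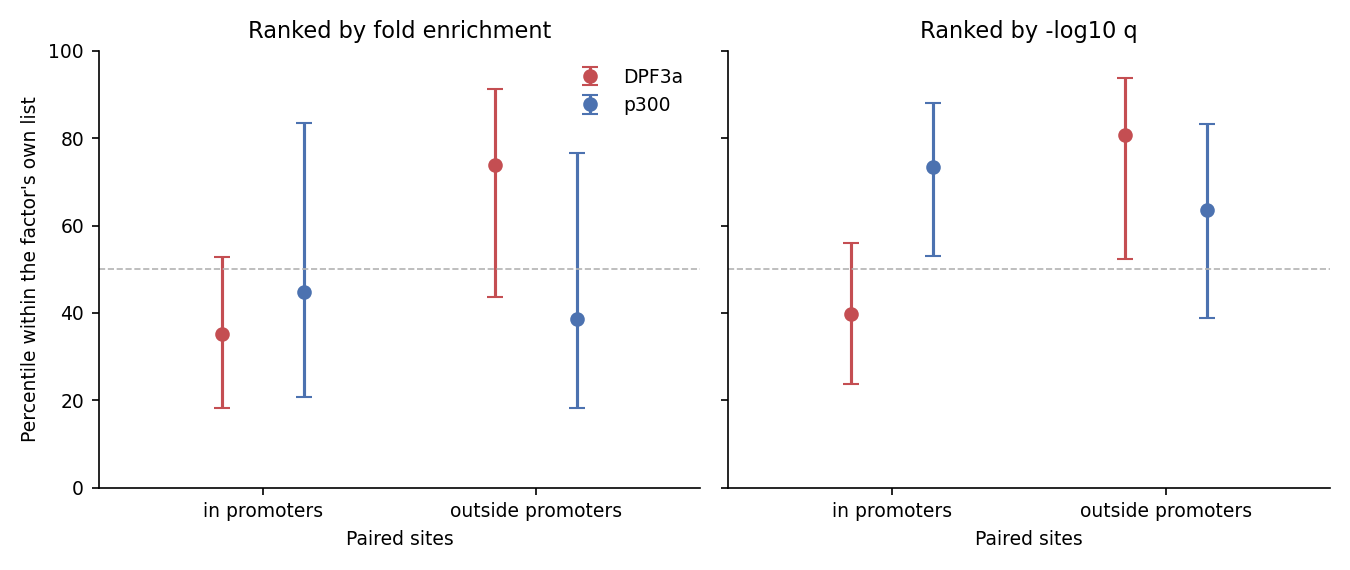
Median percentile (points) with quartiles (bars) of paired peaks within their factor's own list, in promoters and outside them, for DPF3a (red) and p300 (blue), ranked by fold enrichment (left) and by −log10 q (right), with 50 as the dashed line. DPF3a rises from 35.3 in promoters to 73.9 outside them by fold enrichment, and p300 lies below 50 by fold enrichment and above 50 by −log10 q in both places.

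A strong DPF3a peak was only loosely tied to a strong p300 peak. Over the 8531 pairs, the Spearman correlation of the fold enrichment ranks was 0.126, and it was 0.188 in promoters and 0.189 outside them. By −log10 q the correlation was 0.0429 over all pairs, 0.160 in promoters and 0.150 outside. By summit height in reads it was 0.261, 0.466 and 0.306. These are descriptions across sites of the same genome, which share their local background, mappability and base composition. Only 208 pairs, 2.44% (2.13 to 2.79), were in the strongest 10% of both lists, of which 186 lay outside promoters.

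The share of peaks that paired moved with strength in a different way in each list. Peaks were ranked and split into 10 bins. By −log10 q, 9.43% of p300 peaks in the lowest bin were paired (8.38 to 10.6), and 78.1% in the highest (76.2 to 79.8). By fold enrichment the p300 course was a dip, from 52.5% in the lowest bin to 12.3% in bin 6 (11.05 to 13.6) and back to 61.3% in the highest. Bin 6 held the weakest sites in reads, with a median height of 14 reads against 31 in the lowest bin and 28 in the highest. It was also the bin with the lowest promoter share, 14.3%, and 33.7% of its peaks lay on chromosomes 5, 7 and 8. In the DPF3a list the shares ran from 11.96% to 18.8% in the first 9 bins by fold enrichment and reached 23.9% in the highest (22.8 to 25.1), of whose peaks 6.66% were in promoters.

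**Figure D3:**
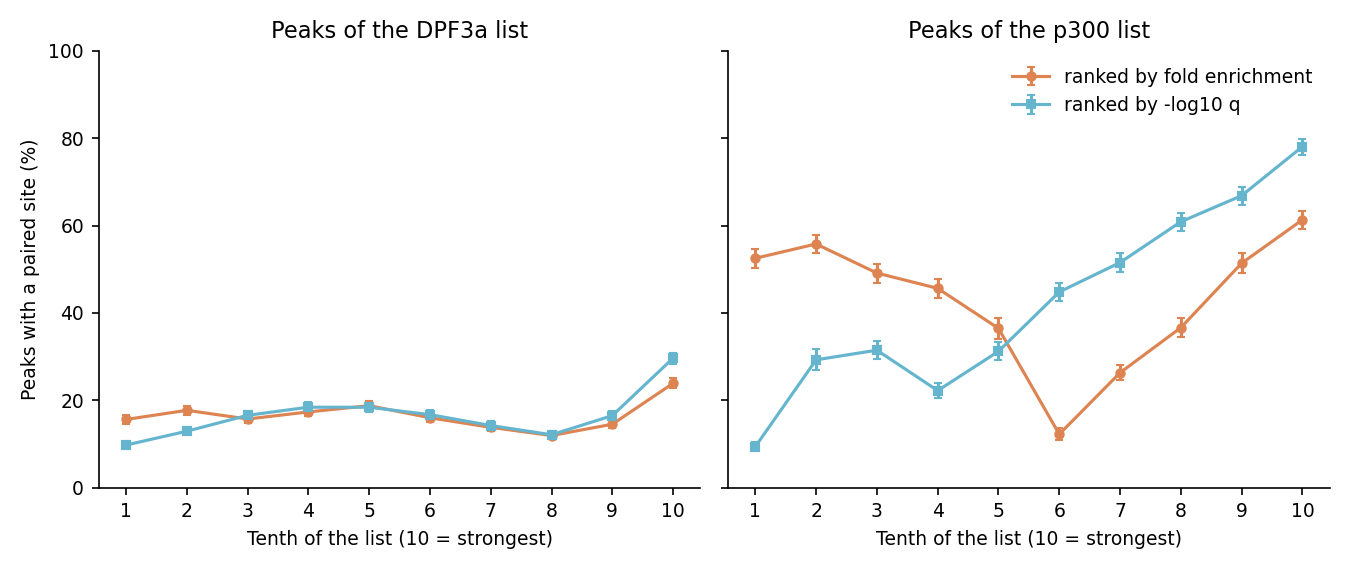
Share of peaks with a paired site (%, with 95% intervals) against the bin of the list from 1, the weakest, to 10, the strongest, for DPF3a (left) and p300 (right), ranked by fold enrichment (orange) and −log10 q (light blue). The DPF3a shares reach at most 29.7%, and the p300 share climbs from 9.43% to 78.1% by −log10 q but dips to 12.3% in bin 6 by fold enrichment.

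Paired peaks were wide in both lists. The median width was 708 bp for paired and 503 bp for unpaired DPF3a peaks, and 697 bp for paired and 330 bp for unpaired p300 peaks. The overlap rule leaves out pairs of very unequal width, so these medians are in part set by it. Within pairs, the median of the DPF3a width minus the p300 width was 18 bp (quartiles -161 and 170), and this hid opposite differences. In promoters it was -73 bp (quartiles -260 and 87), with DPF3a the wider in 37.9% of pairs (36.5 to 39.3). Outside promoters it was 107 bp (quartiles -36 and 221), with DPF3a the wider in 69.8% (68.3 to 71.2). The sign of the median therefore depended on which pairs were taken. p300 peaks of the pairs had a median width of 836 bp in promoters and 555 bp outside, against 757 bp and 667 bp for DPF3a.

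The motifs under paired summits differed between promoters and other sites. A summit counted as holding a motif when its exact letters, on either strand, lay within 50 bp, and the background is the share with a match in either of the 50 bp stretches that lie 500 bp to the left and right. AP-1 letters (TGACTCA) were at 24.0% of DPF3a summits paired outside promoters (22.7 to 25.3, background 1.66%) and at 25.5% of the unpaired ones there (25.1 to 26.0). In promoters they were at 4.25% of paired (3.70 to 4.88) and 12.3% of unpaired DPF3a summits (11.5 to 13.1). At p300 summits the share was 10.1% in pairs outside promoters (9.198 to 10.999, background 1.54%) and 2.40% at unpaired p300 summits there (2.10 to 2.74, background 1.71%).

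Outside promoters, TEAD letters were likewise more frequent at paired than at unpaired p300 summits. TEAD (ACATTCC), the motif of the factors that YAP and TAZ use, was at 4.44% of DPF3a summits paired outside promoters and 2.68% of the p300 summits of those pairs, against 0.936% of unpaired p300 summits outside promoters. RUNX (TGTGGT) was at 14.8% and 10.4% (9.53 to 11.4) in those pairs and at 9.28% of unpaired p300 summits (8.68 to 9.91), so the p300 intervals overlapped, and the backgrounds of these 3 classes were 5.90%, 6.45% and 6.11%. DPF3a summits went the other way. Outside promoters, unpaired ones held TEAD at 5.31% (5.09 to 5.54) and RUNX at 17.4% (17.1 to 17.8), above the paired shares. At p300 summits in promoters, TEAD was at 0.567% of paired and 0.885% of unpaired summits and RUNX at 3.42% and 4.24%, while AP-1 was at 1.63% and 0.885%. In promoters, the letters of general promoter factors were more frequent. SP/KLF (GGGGCGGG) was at 9.30% of DPF3a summits paired in promoters (8.49 to 10.2, background 3.58%) and at 7.20% of p300 summits (6.46 to 8.02). ETS (CCGGAAGT) was at 1.74% and 1.09%, and YY1 (AAGATGGC) at 1.25% and 0.850%. Shares of CRE (TGACGTCA), NRF1 (GCATGCGC), C/EBP (TTGCGCAA) and the SMAD palindrome (GTCTAGAC) were under 1% in every class, as was NF-Y (CCAATCA) at p300 summits. HIF (TACGTG) was at 0.924% to 1.49% of summits in every class of both lists.

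**Figure D4:**
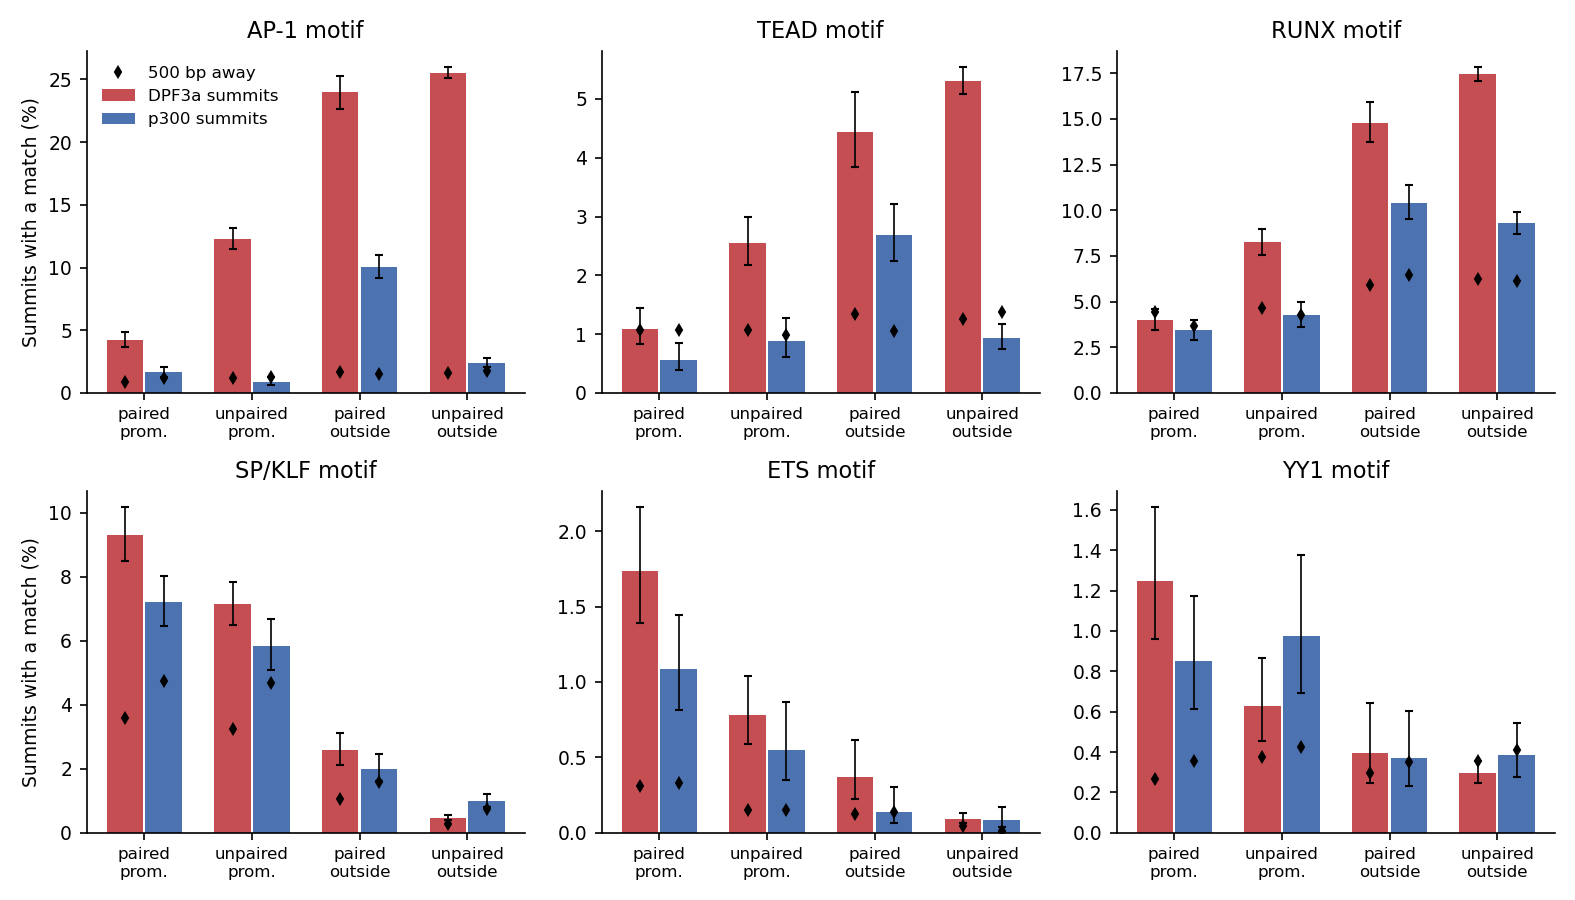
Share of summits (%, with 95% intervals) with an exact motif match within 50 bp, for 6 motifs, in paired and unpaired peaks in promoters (prom.) and outside them, for DPF3a (red) and p300 (blue), with the share 500 bp away as diamonds. The y axis differs between panels. AP-1 reaches 24.0% and 25.5% at DPF3a summits outside promoters and, among p300 summits, 10.1% only in pairs outside promoters.

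The AP-1 letters lay nearer to the DPF3a summit than to the p300 summit of the same site. There were 1784 pairs with a single match, and it was nearer to the DPF3a summit in 69.4% (67.2 to 71.5) and to the p300 summit in 30.3% (28.2 to 32.4). The median distance from the match was 55.5 bp to the DPF3a summit (quartiles 26 and 109) and 113 bp to the p300 summit (quartiles 60 and 191). In the 1360 such pairs outside promoters the medians were 50 bp and 106 bp. Paired summits were also richer in G and C. The median GC content of the 101 bp around DPF3a summits outside promoters was 55.4% in pairs and 45.5% otherwise, and for p300 it was 58.4% and 54.5%. The part that GC content plays in the motif shares was not tested.

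Among pairs over 20000 bp from an assembly gap and on standard chromosomes, the 5 of highest joint rank all lay outside promoters. The first was intergenic, at chr5:5665375-5666054, with a fold enrichment of 18.3 for DPF3a and 10.3 for p300 and summits 40 bp apart. Next came the pair in an intron of DENND1A (chr9:123669157-123669759), a gene of endosome traffic, with 17.0 and 9.72. The pair in RGS6, a regulator of G protein signalling, had 16.8 and 9.59, and its sequence is printed above. A further 2 were intergenic, at chr1:22689319-22690033 and chr1:244104160-244104962. All 5 were above the percentile of 99 in both lists by fold enrichment.

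At the other end were pairs in which 1 factor ranked high and the other low by fold enrichment, the measure of the percentiles given first here. An intronic pair of PFKFB3 (chr10:6238983-6239686), which encodes an enzyme that drives glycolysis, was at percentile 98.8 for DPF3a and 2.44 for p300. A pair in an intron of KCNIP3 (chr2:95315760-95316540) was at 99.9 and 3.55, and an intergenic pair at chr12:52147014-52147942 at 99.1 and 4.32. By −log10 q the p300 percentile was 1.97 in PFKFB3, 18.1 in KCNIP3 and 52.0 in the intergenic pair, so the last was not weak by that measure. The opposite pattern was seen at the promoter of PRKAB2 (chr1:147172216-147173097), a subunit of the energy sensor AMPK, at 2.52 for DPF3a and 99.6 for p300. The remaining members, at promoters on chromosomes 7 and 8, were at 1.30 and 97.2 and at 1.57 and 98.6. By −log10 q the DPF3a percentile was 20.2 in PRKAB2, 19.6 on chromosome 7 and 18.1 on chromosome 8. The DPF3a-high pairs were thus outside promoters and the p300-high pairs in them, as the medians were.

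At gene level DPF3a, whose list of 51530 peaks is far longer than that of p300 with 20380, was held by more genes than p300. A gene held a factor when a summit lay in it or up to 5000 bp upstream of it. Of 20033 protein-coding genes, 13190 held a DPF3a summit (65.8%), 10329 a p300 summit (51.6%) and 9450 both (47.2%). A paired site was held by 6516 genes (32.5%), DPF3a without p300 by 3740 (18.7%), p300 without DPF3a by 879 (4.39%), and neither by 5964. These shares over all protein-coding genes are the ones against which the lists below are read. Of the genes with p300, 91.5% also held DPF3a (90.9 to 92.0), and of the genes with DPF3a, 71.6% also held p300 (70.9 to 72.4). These shares depend on the list sizes, and with only the 20380 DPF3a peaks of highest score, 4589 genes held both in place of 9450. Longer genes more often held a summit of either factor. The share with a paired site went from 14.7% in the shortest 5009 genes to 47.1% in the longest 5008. Other differences between short and long genes were not tested.

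Having both factors was not the same as having them at the same site. Of the 9450 genes with both, 69.0% held a paired site (68.0 to 69.9) and 2934 did not. In the latter the nearest summits of the factors were a median of 395 bp apart, within 500 bp in 54.3% (52.5 to 56.1) and over 5000 bp in 20.2% (18.8 to 21.7). Genes with a paired site had a DPF3a summit in a promoter in 85.6% and a p300 summit there in 78.1%. Of the genes with DPF3a only, 53.6% had it in a promoter, and of those with p300 only, 71.3%. Median gene length was 47.1 kb for genes with a pair, 27.0 kb for DPF3a only and 23.1 kb for p300 only.

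**Figure D5:**
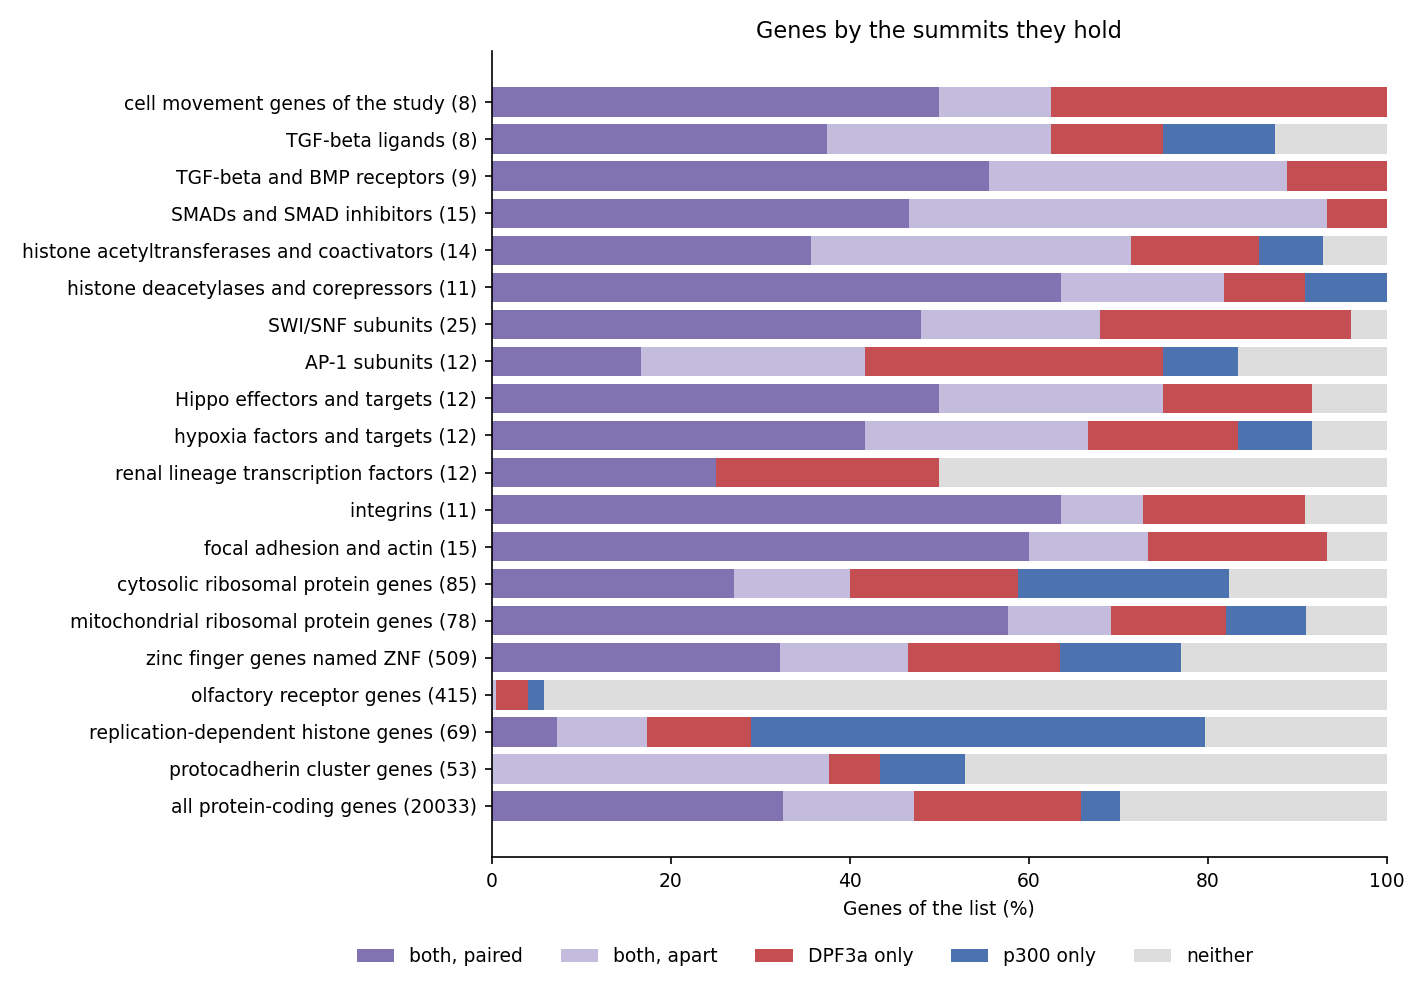
Share of genes (%) of each list, with its number of genes in brackets, that hold a paired site, both factors apart (no paired site, though peaks may overlap), DPF3a only, p300 only or neither, with all protein-coding genes at the bottom. Replication-dependent histone genes have the widest p300-only part (50.7%), and olfactory receptor genes hold almost no summit.

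Cell movement genes that the study followed after DPF3a overexpression all held DPF3a, and 5 of 8 held p300 (62.5%, against 51.6% of all genes). The study chose them on changes in these cells, so their count is no independent evidence. A paired site was held by 4 (50%, against 32.5% of all genes), namely MMP2, MMP16, ZEB1 and WNT7B. MMP2 encodes gelatinase A, which digests basement membrane, and its pair in an intron at chr16:55502741-55503472 was at percentile 69.4 for DPF3a (89 reads) and 7.91 for p300 (29 reads). WNT7B, a secreted Wnt ligand, held 3 paired sites, all in introns, with DPF3a percentiles of 69.8, 90.5 and 91.9 and p300 percentiles of 30.1, 26.2 and 25.2. Their heights were 52, 90 and 100 reads for DPF3a and 38, 39 and 45 reads for p300. ZEB1, a repressor of E-cadherin, had its pair at the start of the gene, at 7.17 for DPF3a and 14.0 for p300. In MMP2 and WNT7B the DPF3a peak thus stood higher in its list by fold enrichment than the p300 peak did. In reads, the peaks of these pairs stood above their list medians of 25 for DPF3a and 23 for p300.

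COL1A1, a fibrillar collagen gene, held both factors at its promoter in overlapping peaks that missed the pairing rule, a DPF3a peak of 1206 bp around a p300 peak of 447 bp. SNAI1 (2 DPF3a summits), MMP1 (1) and COL6A3 (1) held DPF3a and no p300 summit. The windows around the DPF3a summits of the strongest WNT7B pair (chr22:45969166-45969266) and of the MMP2 pair (chr16:55503199-55503299) are shown because both genes are followed by the study. WNT7B held AP-1 letters 43 bp from the summit, and MMP2 none of the 12 motifs.
WNT7B: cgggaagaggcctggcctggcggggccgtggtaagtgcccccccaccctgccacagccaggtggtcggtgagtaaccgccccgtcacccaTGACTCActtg
MMP2: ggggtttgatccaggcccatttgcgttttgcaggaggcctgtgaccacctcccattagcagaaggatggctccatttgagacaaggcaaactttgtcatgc

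Genes of the TGF-β pathway, from ligands to nuclear factors, mostly held both, against 47.2% of all genes. Among 8 ligands, TGFB1, INHBA and BMP7 held a paired site, and TGFB2 and GDF15 held both factors without one. At the TGFB2 promoter the peaks of both factors overlapped but missed the pairing rule. TGFB3 held only DPF3a and BMP2 only p300, while BMP4 held neither. All 9 receptor genes held DPF3a and 8 held p300, with paired sites in 5 (TGFBR1, TGFBR2, TGFBR3, ACVR1 and BMPR1A). ENG, the co-receptor endoglin, was the receptor gene without p300. Among 15 SMADs and SMAD inhibitors, all held DPF3a and 14 held p300, and 7 held a paired site. SMAD3, which carries the TGF-β signal to the nucleus, held 16 DPF3a summits, 5 p300 summits and 4 paired sites, and the inhibitory SMAD6 held 10, 2 and 1. SMAD7, an inhibitor of TGF-β receptors, held both factors but no paired site, although peaks of both overlapped at its promoter and missed the pairing rule. SKI, a corepressor of SMADs, held DPF3a only. A paired site was held by 37.5% of the ligand, 55.6% of the receptor and 46.7% of the SMAD list, against 32.5% of all genes. These genes are long, with a median of 76.1 kb for the SMAD list and 140 kb for the receptors, and the share of genes with a pair rose with length as given above. It was 47.1% in the longest 5008 genes, among which both medians fall.

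Genes for chromatin regulators included EP300 itself, which held 14 p300 summits and no DPF3a summit. Of those 14, 12 lay in coding exons far from the start, so they belong to the coding-exon class described above. CREBBP, the paralogue of EP300, held 4 DPF3a summits and 16 p300 summits, all 16 in such coding exons, and no paired site. Over the 14 acetyltransferase and coactivator genes, 12 held DPF3a, 11 held p300 and 5 a paired site (35.7%, against 32.5% of all genes), including KAT5, KAT6B, KAT7 and NCOA3. Of the 11 deacetylase and corepressor genes, 7 held a paired site (63.6%), including HDAC4 and HDAC9 with 3 sites each. Of 25 SWI/SNF subunit genes, 24 held DPF3a (96.0%, against 65.8% of all genes), 17 held p300 and 12 a paired site (48.0%). The median gene length is 51.1 kb in the SWI/SNF list and 86.5 kb in the deacetylase and corepressor list. Of all genes of 27472 to 71717 bp, 75.8% held DPF3a and 40.0% a pair. In the longest 5008 genes these shares were 88.0% and 47.1%. DPF3 held 10 DPF3a summits and no p300 summit. ARID1A, ARID1B, PBRM1, SMARCA2 and ARID2 held between 1 and 7 p300 summits in far coding exons each.

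AP-1 letters were frequent at paired and unpaired DPF3a summits outside promoters alike. Of 12 genes for AP-1 subunits, 9 held DPF3a (75%) and 6 held p300 (50%), close to the shares of all genes, and 2 held a paired site (16.7%, against 32.5%), ATF3 and MAFK. FOSB, JUND, BATF3 and MAFF held DPF3a only and FOS p300 only. The median length of these genes is 10.4 kb, and over all genes the share with a pair was 14.7% in the shortest 5009 and 28.3% in the next 5008. Of 12 Hippo pathway effectors and targets, 11 held DPF3a (91.7%, against 65.8% of all genes) and 6 a paired site (50%, against 32.5%), including the YAP targets CCN1, CCN2 and ANKRD1. ANKRD1 held its pair at its promoter, with a fold enrichment of 15.3 for DPF3a and up to 5.75 for p300 over its 2 summits.

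Hypoxia factors and targets matter in this cell type, in which loss of VHL leaves HIF2 stable. Of 12, 10 held DPF3a (83.3%, against 65.8% of all genes) and 9 held p300 (75%, against 51.6%). A paired site was held by 5 (41.7%, against 32.5%), namely EPAS1, ARNT, NDRG1, BNIP3 and EGLN3. EPAS1, which encodes HIF2α, held 5 DPF3a summits and 1 p300 summit, which were joined in an intronic pair at percentile 83.1 for DPF3a and 64.2 for p300. EGLN3, the prolyl hydroxylase PHD3, held 9 and 4 summits and 2 pairs. VEGFA and CA9 held 1 DPF3a summit each and no p300 summit. The EGLN3 window (chr14:34043913-34044013) is shown for its AP-1 letters and the EPAS1 window (chr2:46315418-46315518) for having none of the 12 motifs, including HIF.
EGLN3: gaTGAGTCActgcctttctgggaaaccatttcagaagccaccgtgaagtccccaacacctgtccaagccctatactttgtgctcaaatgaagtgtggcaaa
EPAS1: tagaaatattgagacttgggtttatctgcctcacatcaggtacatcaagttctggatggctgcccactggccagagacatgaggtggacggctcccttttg

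Of 12 renal lineage factor genes, 6 held DPF3a (50%, against 65.8% of all genes) and 3 held p300 (25%, against 51.6%). PAX2, PAX8 and WT1 held a paired site (25%, against 32.5%). EMX2 and IRX3 were among those with DPF3a only, and 6 held neither (50%, against 29.8%), among them LHX1, SIX2, POU3F3, TFAP2B and GATA3. PAX8, a marker of renal tumours, held 5 DPF3a summits and 2 p300 summits. Adhesion genes were held often. Of 11 integrin genes, 7 held a paired site (63.6%, against 32.5% of all genes), with 4 each in ITGB1 and ITGA3, while ITGA2 and ITGA5 held DPF3a only. Of 15 focal adhesion and actin genes, 14 held DPF3a, 11 held p300 and 9 a paired site (60%), including FN1, VIM, ZYX and TPM1. The median lengths of the integrin and the focal adhesion and actin genes are 85.1 kb and 75.6 kb. Both fall among the longest 5008 genes, of which 47.1% held a pair.

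Replication-dependent histone genes were the list in which p300 most often stood alone. Most of these genes are short, intronless and active in S phase, and most lie in clusters. Of 69, 47 held p300 (68.1%, against 51.6% of all genes), 20 held DPF3a (29.0%, against 65.8%) and 5 a paired site (7.25%, against 32.5%). A p300 summit without DPF3a was held by 35 (50.7%, against 4.39% of all genes). Neighbouring genes share summits, so these counts rest on 37 distinct p300 summits, of which 4 were paired, and 14 distinct DPF3a summits. With only promoters counted, p300 was at 13 of 69 (18.8%), below the 32.9% of all genes, and DPF3a at 5 (7.25%, against 41.7%). There, p300 without DPF3a was at 12 of 69 (17.4%) against 7.37% of all genes. The p300 summits had a median percentile of 40.7 in their list and a median height of 25 reads. The window around the p300 summit in the coding exon of H2AC11 (chr6:27133194-27133294), a neighbour of H2BC11, is shown because no DPF3a peak touched that p300 peak. It held none of the 12 motifs.
H2AC11: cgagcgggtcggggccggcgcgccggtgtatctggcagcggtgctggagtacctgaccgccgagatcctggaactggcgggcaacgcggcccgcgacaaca

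Ribosomal protein genes of the cytosol and of mitochondria were counted apart. Of 85 cytosolic ones, 50 held DPF3a (58.8%), 54 held p300 (63.5%), 23 a paired site (27.1%) and 20 p300 without DPF3a (23.5%), among them RPL11, RPS3A and RPL9. Of 78 mitochondrial ones, 64 held DPF3a (82.1%), 61 held p300 (78.2%), 45 a paired site (57.7%) and 7 p300 without DPF3a (8.97%). The median gene length is 5.55 kb in the cytosolic and 11.9 kb in the mitochondrial list, lengths that fall among the shortest 5009 genes and the next 5008, of which 14.7% and 28.3% held a pair. The part of gene length in the difference between the lists was not tested. The median DPF3a percentile of the summits was 18.2 in the cytosolic and 35.02 in the mitochondrial list. Both families encode parts of ribosomes, which translate nuclear and mitochondrial messages, respectively.

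The genes with most paired sites were long. PRKAG2, RUNX1 and TRIO held 9 each, ABTB2 held 8, and GNG7, ROR1 and RPTOR held 7 each. ROR1 is a receptor for Wnt ligands and RPTOR is a part of the mTORC1 kinase complex. RUNX1, the gene of a factor that binds the RUNX motif, spans 1217 kb and held 52 DPF3a and 20 p300 summits. GNG7, a G protein subunit gene of 191 kb, held 11 DPF3a summits and 7 p300 summits, and all 7 were paired. PRKAG2, a further AMPK subunit gene, held 21 DPF3a and 10 p300 summits, and within it the p300 percentile of its pairs ran from 0.527 to 87.2 and that of DPF3a from 4.79 to 99.4. The pairs of PRKAG2 thus spanned most of both lists.

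DPF3a without p300 was most frequent in PRICKLE2, a planar polarity gene with 32 DPF3a summits. It was followed by MACROD2 (22), LRRC4C (18), CAMK1D (17) and RYR3 (17), all over 350 kb long. p300 without DPF3a was most frequent in ROS1, a receptor kinase gene with 24 p300 summits, of which 21 lay in far coding exons, and in EP300 as given above. After these came CCND2 (5, of which 3 in such exons), MTBP (5), and DNAI3, IKZF1, RALYL, SELENOP and TOPBP1 with 4 each, of which only IKZF1 had any in such exons (3). MTBP, RALYL, IKZF1 and SELENOP lie on chromosomes 5, 7 or 8, where fewer p300 peaks were paired.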

How the data were processed

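ChIP-seq of DPF3a, SMAD4 and p300 in 786-O cells (2 libraries each, 6 samples) was grouped by the factor that each sample title names. The authors trimmed reads, mapped them to hg38 with Bowtie2 2.3.5.1, removed duplicates with Picard and called peaks with MACS2 2.2.5. How replicates were combined and which control was used are not given in the sources used here. The score deposited by the authors was kept above 50. The authors also deposited the fold enrichment, a ratio of summit reads to background, and the −log10 p and −log10 q of each peak. These values were used only within a list.

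Summit heights and depth were recovered from fold enrichment and −log10 p (largest error 8.6e-04, fragments of 200 bp, genome of 2.7 Gb assumed). Genes, transcript starts and exons came from GENCODE 44, with 20033 protein-coding genes. Pairs were found in Python 3.11.15 and matched bedtools 2.31.1 in 6 of 6 combinations of lists and rules. The code was also tested on simulated peaks. Shares have 95% Wilson intervals. Named genes were those of 13 lists and 6 families where results turned on them by role, the 5 pairs of highest joint rank, the 3 most unequal pairs in each direction, and the genes with most paired or unpaired summits, ties included. Pairs within 20000 bp of an assembly gap were left out of the joint ranks. The windows printed were chosen for joint rank and motif. Some genes of the lists are not reported here by name. Members, lists and motifs were chosen with earlier results of these data known.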

Additional observations from a re-analysis of the deposited data

How the results depend on the processing

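No paired analysis was possible because the 2 libraries of a factor went into 1 list, and no library was left out for the same reason. Of 65 recomputed values, 25 stayed within the error of the reported value (counts within 1.5 times), 38 moved and 2 changed sign.

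The median width difference changed sign to -1 bp with scores over 100 and to -73 bp in promoters, and was 107 bp outside promoters, 119 bp in equal-size lists (the 20380 DPF3a peaks of highest score), 48 bp with an overlap of 1 bp and 68 bp with summits within 200 bp. With scores over 100 there were 2120 pairs and 2641 genes with both. The p300 share was 50.99%, the Spearman correlation 0.170, the summit distance 85 bp, the gene share with a pair 63.99% and the AP-1 share 15.3%. Equal-size lists gave 3691 pairs, 18.1% of p300 peaks, a correlation of 0.213, 85 bp, 4589 genes with both, 43.997% of them with a pair, and an AP-1 share of 27.3%. Without chromosomes 5, 7 and 8 the p300 share was 45.7%. An overlap of 1 bp gave 58.0% of p300 peaks, 111 bp and 87.4% of genes. Summits within 200 bp gave 40.0%, 71 bp, 61.8% of genes and an AP-1 share of 15.1%. The Spearman correlation was 0.0429 by −log10 q, 0.188 in promoters and 0.189 outside, where the distance was 122 bp and 85 bp and the AP-1 share 4.25% and 24.0%. Genes with both were 5116 by promoter only, and the gene share with a pair was 73.0% by promoter and 63.2% by gene span. AP-1 within 100 bp was at 21.1%. Without far coding-exon summits, an alternative chosen after the data were seen, 43.2% of p300 peaks were paired. Values under stricter scores or shorter lists come from fewer peaks by construction, and other causes were not tested.

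Peaks of both factors are weak, with a median height of 25 reads for DPF3a and 23 for p300, so a missing summit of either is not shown to be absent binding, which bears on genes with p300 or DPF3a only. All values rest on single lists whose replicate error is unknown.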

Other observations

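Gene families outside the study's themes showed further patterns of holding. Of 509 zinc finger genes named ZNF, many of which silence repeats, 323 held DPF3a (63.5%), 306 held p300 (60.1%) and 164 a paired site (32.2%), and p300 without DPF3a was at 69 (13.6%, against 4.39% of all protein-coding genes). Of 415 olfactory receptor genes, which are silent outside sensory tissue, 391 held neither factor and 0 held a paired site. Of 53 protocadherin cluster genes, which share their exons and upstream regions, 20 held both factors and 0 a paired site, and these counts rest on 4 distinct DPF3a summits and 3 distinct p300 summits.

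NRF1 letters (GCATGCGC) were at 0.761% of unpaired p300 summits outside promoters (65 of 8546, background 0.140%) and at 0.210% of paired ones. Far coding-exon summits numbered 883 in the p300 list and 432 in the DPF3a list, with a median width of 299 bp and 492 bp. In the p300 list, 46 genes held 5 or more of them, and in the DPF3a list 0 did. The 3 genes with most, named after their values were seen, were LRP1B (56), ATM (21) and ROS1 (21).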
